A study of Mus musculus with 36 samples.

Results

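Allelic transcription was compared between SMCHD1 E147A and Halo-SMCHD1 mouse embryonic stem cells after 7 days of monolayer differentiation. The comparison rests on 5 of the 36 samples of the series, 2 libraries of E147A and 3 of Halo-SMCHD1, taken by line and day from the sample labels, and on all 249 X-linked genes of the allelic table. All libraries come from the iXist-ChrX background, an interspecific XX line carrying a 129S and a Cast X chromosome, in which a TetOn promoter on the 129S Xist allele is driven by rtTA expressed from the Tigre locus. Halo-SMCHD1 (clone G2) has an N-terminal Halo tag on the native protein, and the study describes an eGFP-CIZ1 transgene in this line. E147A (clone A7) was made in Halo-SMCHD1 by changing both endogenous Smchd1 alleles, so that both lines carry the tag and the transgene. Each line is a single clone, and a change particular to a clone cannot be told apart from the genotype. Differentiating cells were kept in 1 µg/ml doxycycline, without feeders. The study describes its ChrRNA-seq replicates as independent repeats of a single clone, so p-values measure the spread between repeats and not between clones.

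X chromosome inactivation silences 1 of the X chromosomes of a female cell. Xist RNA coats the chromosome from which it is transcribed, transcription falls within days, and most X-linked genes remain silent while escape genes stay partly active. SMCHD1 is a noncanonical SMC protein that accumulates on the inactive X and is needed to keep part of its genes silent. Its GHKL domain binds and hydrolyses ATP. The E147A substitution lies in that domain and is described in the study as abolishing hydrolysis while ATP can still bind. The study also reports slightly lower SMCHD1 protein in E147A cells and loss of its enrichment over the Xi. The comparison asks how much silencing is achieved in these cells, and cannot separate lost hydrolysis from a lower protein level. The reading for each gene is Xi/(Xi+Xa), the share of allelic reads from the 129S chromosome, which is Xi here. It is 0.5 for equal transcription of the alleles and 0 for complete silencing. The reads are chromatin-associated RNA, counted over whole transcripts with introns included. The read depth behind each fraction is unknown, so the counting error of a fraction cannot be given, and a gene at exactly 0 is described as listed at 0. Smchd1 itself is autosomal and is not among these genes, so the genotype was not checked here.

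The E147A libraries sat above the Halo-SMCHD1 libraries and far from each other. The median gene had Xi/(Xi+Xa) of 0.0198, 0.0372 and 0.0426 in Halo-SMCHD1 replicates 1, 2 and 3. It was 0.0526 in E147A replicate 1 and 0.101 in the other E147A library. The table numbers that second library 3, a number that the labels do not give for E147A at day 7, and it is called the unmatched library here. Halo-SMCHD1 replicate 1 was the lowest library, with 61 genes listed at 0 against 22 and 19 in its sister libraries and 25 and 14 in E147A replicate 1 and the unmatched library. Before induction the medians were 0.518 in Halo-SMCHD1 and 0.514 in E147A, and after 24 h of doxycycline they were 0.237 and 0.270, with 1 library of each line at each of these points.

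**Figure D1:**
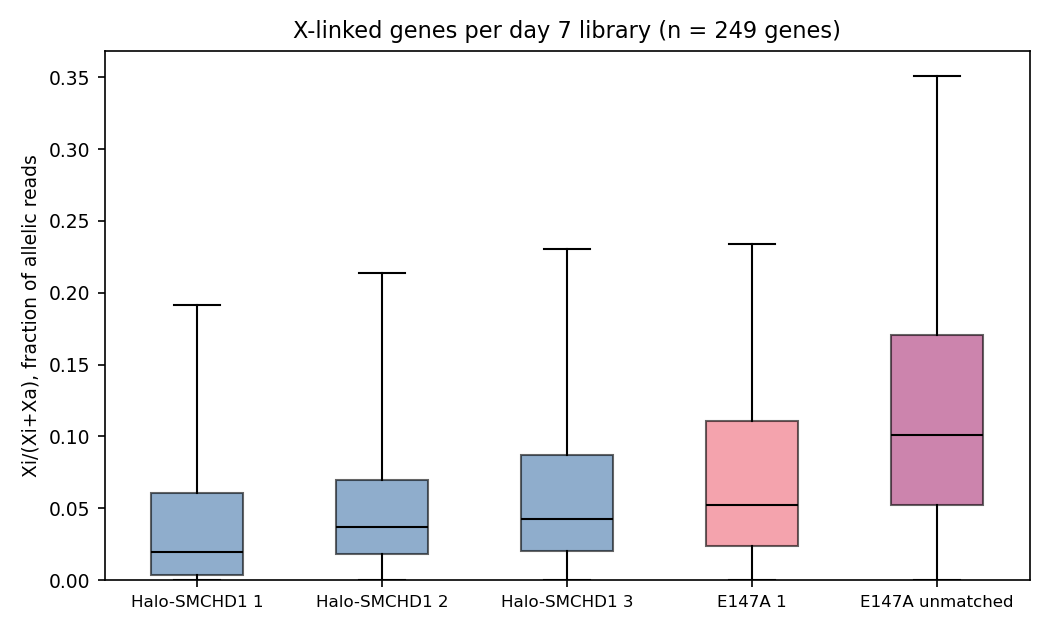
Boxes give the median and quartiles of Xi/(Xi+Xa) over 249 genes in each day 7 library, with whiskers at the 5th and 95th percentiles. The medians run from 0.0198 to 0.0426 in Halo-SMCHD1 and are 0.0526 and 0.101 in the E147A libraries.

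Averaged over libraries, the median was 0.0767 ± 0.0341 (SD, n = 2) for E147A, against 0.0332 ± 0.0119 (SD, n = 3) for Halo-SMCHD1. The library medians of the lines did not overlap, with an exact two-sided permutation p of 0.2, the smallest this design allows. The number of genes above 0.1 was 39, 42 and 51 in Halo-SMCHD1 and 68 and 125 in E147A (exact permutation p = 0.2). The mean difference over genes was 0.0393, and it was 0.0168 for replicate 1 alone and 0.0618 for the unmatched library alone. The size of the shift depended on the library, and its direction was the same in both.

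Gene by gene, the mean was higher in E147A for 219 of 249 genes and lower for 28. Replicate 1 exceeded every Halo-SMCHD1 library in 126 genes and the unmatched library did so in 197. Both did so in 115 genes, which is 46.2% of the genes tested. Another 82 genes were above all Halo-SMCHD1 libraries in the unmatched library only, 11 in replicate 1 only and 41 in neither. In the 82 genes the median level was 0.0296 in replicate 1, inside the Halo-SMCHD1 medians of 0.0169, 0.0310 and 0.0396 for those genes, and 0.0964 in the unmatched library. These genes were chosen for a high unmatched library and a replicate 1 that is not, so the contrast follows from that choice. Only Gabra3, which encodes a GABA-A receptor subunit, had both E147A libraries below all Halo-SMCHD1 libraries.

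**Figure D2:**
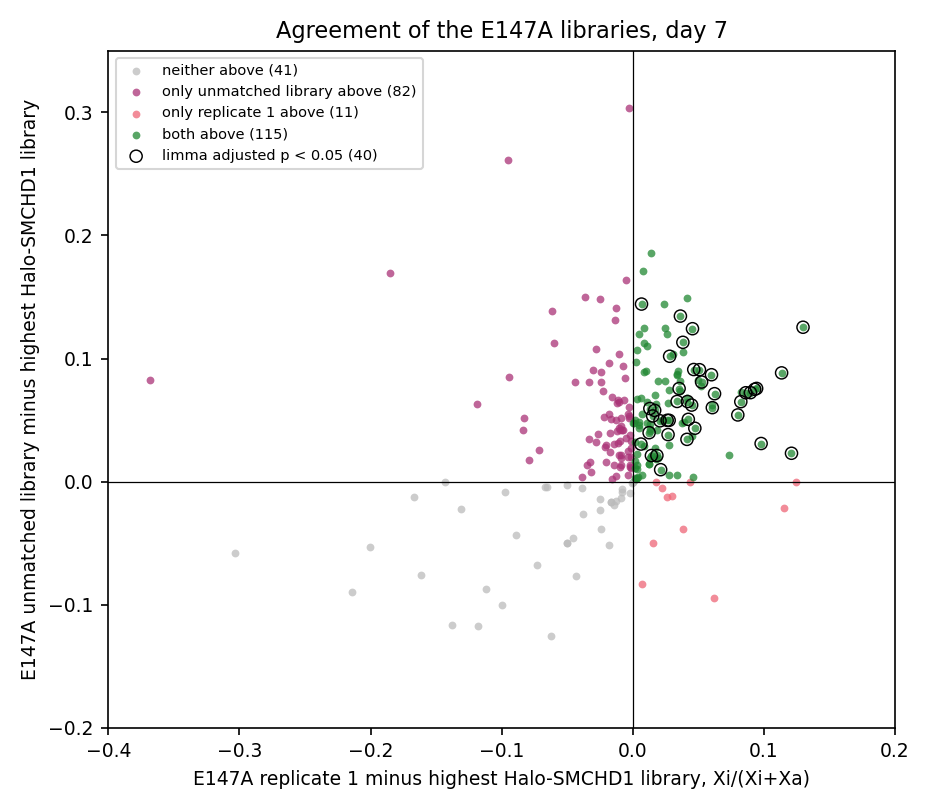
Each point is a gene, placed by how far E147A replicate 1 (horizontal axis) and the unmatched E147A library (vertical axis) lie above the highest Halo-SMCHD1 library in Xi/(Xi+Xa). The upper right quadrant holds the 115 genes in which both libraries exceed all Halo-SMCHD1 libraries, and all 40 circled genes, called by limma, lie in it. 1 gene, Tsix, falls outside the axes.

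A limma fit on the log2 odds of Xi/(Xi+Xa), with Benjamini-Hochberg adjustment over 249 genes, called 40 genes (16.1% of those tested) at an adjusted p under 0.05. All 40 were higher in E147A, and all 40 were among the 115 genes without overlap. At an unadjusted p under 0.05 there were 96 genes, none of them lower. Called genes rose by 0.0182 to 0.149 in fraction, with a median of 0.0722, and none exceeded a mean of 0.212 in E147A. The median over genes of the log2 odds difference was 0.87.

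The calls depended on single libraries. With the unmatched library left out, 5 genes were called (Chst7, Flna, Kif4, Spin4 and Zfp182), and with replicate 1 left out 79 were called, 35 of them among the 40. These fits assume that a lone E147A library varies like the other groups. The 5 genes were also called with replicate 1 left out. Without Halo-SMCHD1 replicate 1, the library with the most genes at 0, 13 genes were called, 12 of them among the 40. A fit restricted to the 2 groups called Spin4 only. Removing each library's median lowered the log2 odds difference of the median gene by 1.06. On that relative scale the limma fit called Spin4 only, 34 genes had an unadjusted p under 0.05 (6 higher and 28 lower in E147A), 17 genes had both E147A libraries above all Halo-SMCHD1 libraries and 51 had both below. Of the 40 called genes, 33 stayed higher and 7 turned lower on it. A gene without change becomes lower on that scale by the subtraction alone. Ube2a, at 1 in all 5 libraries, had a log2 odds difference of -1.06 there. Genes counted as lower or below on that scale need not have fallen in fraction.

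Spin4, a member of the spindlin family of histone-tail readers on chromosome X at 95022507 to 95026682 (mm10), had the smallest adjusted p. It was listed at 0 in all 3 Halo-SMCHD1 libraries and had 0.0625 and 0.0714 in E147A replicate 1 and the unmatched library. The groups were separate and the E147A libraries close together. The read depth at Spin4 is unknown, and fractions this low, like the zeros, could rest on very few Xi reads. The log2 odds difference was 3.04 ± 0.18 (SE, limma adjusted p = 2.74e-07), a size that depends on the pseudocount, being 6.18 with 0.001 and 1.32 with 0.05. No fold is given against a group at 0, and identical zeros add no spread to the SE. Spin4 was called in all 14 alternatives that could be fitted for it, with adjusted p from 1.23e-09 to 0.0383. All of these fits use the deposited fractions, and none takes the counting error of a fraction into account. After 24 h of doxycycline its fraction was 0.111 in Halo-SMCHD1 and 0.129 in E147A.

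Kif4 encodes a chromokinesin that acts on mitotic chromosomes and in the central spindle (chromosome X, 100626065 to 100727271). Its fraction was 0.0220, 0.0226 and 0.0276 in Halo-SMCHD1 and 0.122 and 0.103 in E147A replicate 1 and the unmatched library. The means differed 4.68-fold, and the log2 odds difference was 1.98 ± 0.28 (SE, limma adjusted p = 0.00146). Flna, which encodes the actin crosslinker filamin A (74223461 to 74246534), had 0.0215, 0.0234 and 0.0239 in Halo-SMCHD1 and 0.114 and 0.0961 in E147A. Its log2 odds difference was 1.93 ± 0.30 (SE, limma adjusted p = 0.00215). In both genes replicate 1 was the higher of the E147A libraries, the reverse of the library medians.

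The largest gap between the lower E147A library and the highest Halo-SMCHD1 library belonged to Ppp1r3f, a glycogen-targeting subunit of protein phosphatase 1 (7558562 to 7574281). Its fraction was 0.0435, 0.0339 and 0.0700 in Halo-SMCHD1 and 0.200 and 0.195 in E147A (log2 odds difference 2.10 ± 0.63 SE, limma adjusted p = 0.0477). Gm36995 overlaps it on the same strand, and reads in the shared stretch cannot be assigned to either. Araf, a RAF-family kinase of the MAPK pathway (20848543 to 20852905), had 0.0703, 0.0619 and 0.0828 against 0.196 and 0.171, a 2.56-fold difference of means (limma adjusted p = 0.00978). Ogt, the enzyme that adds O-GlcNAc to nuclear and cytoplasmic proteins, had 0.106, 0.111 and 0.128 against 0.221 and 0.203 (limma adjusted p = 0.0109), and its log2 odds difference of 1.00 became -0.06 once library medians were removed. Zfp182, a zinc finger gene, had 0.0864, 0.0688 and 0.0869 against 0.173 and 0.159 (limma adjusted p = 0.00569). Each of these genes separated the lines by more than the distance between the E147A libraries. All were named for a wide gap, so their separation follows from that choice and adds no evidence.

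The regions upstream of the start of the 3 genes with the widest gaps are shown because all 3 were called and their E147A libraries lay close together. They are the 250 bases before the RefSeq start, on build GRCm38.p6: chrX:7574282-7574531, minus strand, for Ppp1r3f, chrX:20848293-20848542, plus strand, for Araf and chrX:100625815-100626064, plus strand, for Kif4. Each is written 5′ to 3′ along its gene. Capitals mark GGGCGG, the GC box bound by Sp1-type factors, and CCAAT, the box bound by NF-Y, on either strand.
Ppp1r3f: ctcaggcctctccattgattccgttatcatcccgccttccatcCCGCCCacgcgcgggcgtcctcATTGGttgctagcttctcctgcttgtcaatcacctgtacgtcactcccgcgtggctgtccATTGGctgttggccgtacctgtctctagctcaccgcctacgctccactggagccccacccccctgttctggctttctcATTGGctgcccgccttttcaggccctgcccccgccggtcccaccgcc
Araf: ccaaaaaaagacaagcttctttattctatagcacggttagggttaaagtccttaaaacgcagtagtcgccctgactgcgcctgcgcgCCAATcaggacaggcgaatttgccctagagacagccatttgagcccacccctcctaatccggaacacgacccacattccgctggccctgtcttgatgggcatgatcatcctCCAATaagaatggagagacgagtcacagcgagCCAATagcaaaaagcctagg
Kif4: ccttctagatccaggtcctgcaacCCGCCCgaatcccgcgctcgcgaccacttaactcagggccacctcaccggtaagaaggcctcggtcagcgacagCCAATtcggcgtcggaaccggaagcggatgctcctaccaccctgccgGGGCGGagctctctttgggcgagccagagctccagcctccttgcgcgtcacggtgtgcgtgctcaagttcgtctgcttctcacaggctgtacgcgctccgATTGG
Ppp1r3f held 1 GGGCGG and 3 CCAAT letters, Araf none and 3, and Kif4 2 and 2. The windows held 17, 12 and 25 CpG dinucleotides in the same order. GGGCGG occurred in 73.5% of the 34 called genes with a RefSeq entry, in 60% of the 100 entries for genes without overlap and in 60% of the 210 for genes of the table, against 32.7% of 32851 RefSeq promoter windows of that length. CCAAT occurred in 55.9%, 47.0%, 44.8% and 33.8% of the same sets, TATAAA in 2.94%, 8.0%, 7.14% and 12.4%, and CCATNTT, the core of the YY1 motif, in 11.8%, 18.0%, 14.8% and 12.4%. Median CpG counts were 15, 14.5, 12 and 6. No test was made on these letters, which describe the windows and not sites that are bound.

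Other genes with wide gaps or small adjusted p had low levels in Halo-SMCHD1. Enox2, a cell surface oxidase, had 0.0198, 0.0255 and 0.0359 in Halo-SMCHD1 and 0.0961 and 0.123 in E147A (limma adjusted p = 0.00359). Chst7, a sulfotransferase of chondroitin synthesis, was listed at 0 in Halo-SMCHD1 replicate 1, had 0.00826 and 0.0119 in replicates 2 and 3, and had 0.0594 and 0.0552 in E147A (limma adjusted p = 0.00209). Las1l, which takes part in pre-ribosomal RNA cleavage, had 0.0181, 0.0172 and 0.0233 against 0.0647 and 0.0576 (limma adjusted p = 0.00721). These 3 genes were called, and they were named for a wide gap or a small adjusted p, so the distance between their groups follows from that choice. Mtmr1, a phosphoinositide phosphatase, had 0.00752, 0.0441 and 0.0473 against 0.108 and 0.107 (limma adjusted p = 0.0485).

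**Figure D3:**
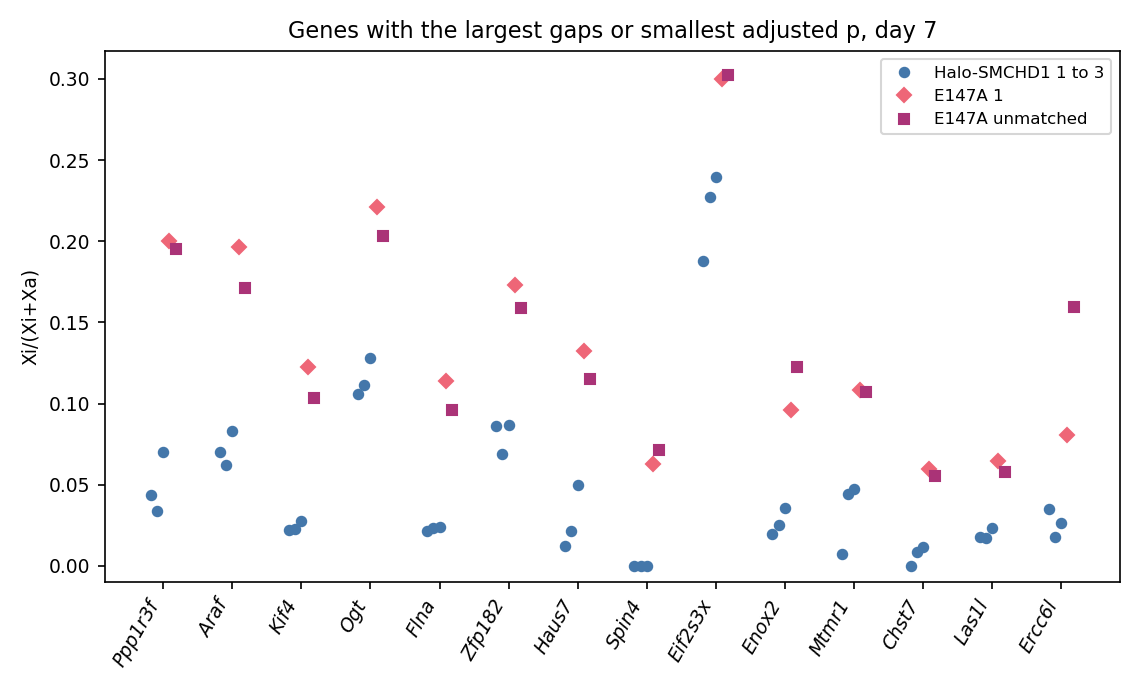
Xi/(Xi+Xa) in each of the 5 day 7 libraries for 14 of the genes with the largest gap or the smallest limma adjusted p. Every E147A point lies above all Halo-SMCHD1 points of its gene, which the choice of genes required. In 10 of the 14 genes replicate 1 lies above the unmatched library.

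Those 12 genes were chosen by the lower of the E147A libraries, and in 9 of them replicate 1 was the higher. Over all genes the unmatched library was higher in 192 and lower in 46, with a median difference of 0.0365. Among the 40 called genes replicate 1 was at least as high in 14, and among the 115 genes without overlap in 26.

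Of 4 mitosis genes measured, 3 had no overlap and were called, against 46.2% without overlap and 16.1% called of all genes. The list's median fraction difference was 0.0912, against 0.0368 for all genes. Those 3 genes were also named for a wide gap or a small adjusted p. The list was chosen with earlier results of these data known, so it is not an independent class. Ercc6l, the PICH translocase of ultrafine anaphase bridges, had 0.0352, 0.0181 and 0.0263 in Halo-SMCHD1 and 0.0809 and 0.159 in E147A (limma adjusted p = 0.00955). Haus7, a subunit of the augmin complex that nucleates spindle microtubules, had 0.0123, 0.0217 and 0.05 against 0.133 and 0.115 (limma adjusted p = 0.0146). Kif4 was the third. Stag2, a cohesin subunit, had 0.0417, 0.0410 and 0.0519 against 0.0377 and 0.0825 (limma adjusted p = 0.554), so that replicate 1 lay below and the unmatched library above every Halo-SMCHD1 library. With library medians removed the median log2 odds difference of the list was 0.91, against -0.19 for all genes.

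Of 22 chromatin genes, 12 (54.5%) had no overlap and 5 (22.7%) were called, against 46.2% and 16.1% of all genes. The called genes were Kif4, Ercc6l, Ogt, Med14 and Taf1. Med14, a Mediator subunit, had 0.0279, 0.0372 and 0.0459 in Halo-SMCHD1 and 0.0722 and 0.0957 in E147A (limma adjusted p = 0.0146). The H3K9 methyltransferase gene Suv39h1 overlapped between the lines (log2 odds difference 0.15, limma adjusted p = 0.773), as did Smarca1 (-0.48, limma adjusted p = 0.486). The median log2 odds difference of the list was 0.88, close to the 0.87 of all genes, and -0.18 with library medians removed.

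Membrane traffic and cytoskeleton genes had 9 of 17 (52.9%) without overlap and 6 (35.3%) called, against 46.2% and 16.1% of all genes. Besides Flna these included Bcap31, an endoplasmic reticulum chaperone (0.0300, 0.0389 and 0.0423 against 0.0842 and 0.107, limma adjusted p = 0.0250), and Clcn5, an endosomal chloride-proton exchanger (0.00744, 0.0266 and 0.0210 against 0.0398 and 0.0860, limma adjusted p = 0.0288). Emd, which encodes emerin of the inner nuclear membrane, had 0.0247 and 0.0455 in Halo-SMCHD1 replicates 1 and 3, was listed at 0 in replicate 2, and had 0.167 and 0.0685 in E147A (limma adjusted p = 0.0446). Wdr45 was also called, and shares a stretch on its strand with Gm45208. The list's median log2 odds difference was 1.21, and 0.15 with library medians removed.

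Signalling genes had 8 of 18 (44.4%) without overlap, near the 46.2% of all genes, and 5 (27.8%) called against 16.1%. Araf, Ppp1r3f, Mtmr1 and Cask were among those called. Cask, a scaffold kinase of the MAGUK family, had 0.00933, 0.0204 and 0.0272 in Halo-SMCHD1 and 0.0398 and 0.0670 in E147A (limma adjusted p = 0.0356). The median log2 odds difference was 0.72, and -0.33 with library medians removed.

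Mitochondrial and metabolic genes had 9 of 13 (69.2%) without overlap and 3 (23.1%) called, against 46.2% and 16.1% of all genes. Nsdhl, an enzyme of cholesterol synthesis, had 0.00637, 0.0321 and 0.0106 against 0.0530 and 0.0815 (limma adjusted p = 0.0185). Taz, the tafazzin of cardiolipin remodelling, was listed at 0 in Halo-SMCHD1 replicate 1, had 0.0392 and 0.0189 in replicates 2 and 3, and 0.137 and 0.0702 in E147A (limma adjusted p = 0.0475). Aifm1, a flavoprotein of the intermembrane space, was the third (limma adjusted p = 0.0485). Idh3g had no overlap (0.167, 0.129 and 0.157 against 0.209 and 0.316) and was not called (limma adjusted p = 0.0608). The list's median log2 odds difference was 1.04, and -0.01 with library medians removed.

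Of 25 RNA and ribosome genes, 11 (44%) had no overlap and 2 (8%) were called, against 46.2% and 16.1% of all genes. The median log2 odds difference of the list was 0.76, and -0.30 with library medians removed. The called genes were Las1l and Rbm3, a cold-inducible RNA-binding protein with 0.0532, 0.0591 and 0.0881 in Halo-SMCHD1 and 0.168 and 0.142 in E147A (limma adjusted p = 0.0140). Ubiquitin genes had 3 of 9 (33.3%) without overlap and 2 (22.2%) called, with a median log2 odds difference of 0.71, and -0.35 with library medians removed. Xiap, an inhibitor of caspases, had 0.0299, 0.0284 and 0.0400 against 0.0670 and 0.0782 (limma adjusted p = 0.0425). The deubiquitinase gene Otud5 had 0.103, 0.0813 and 0.132 against 0.160 and 0.182 (limma adjusted p = 0.0485). The log2 odds differences of Xiap and Otud5, 1.02 and 0.78, became -0.04 and -0.28 with library medians removed.

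The escape list held 6 measured genes, of which Xist is read from the induced allele. The other 5 (83.3% of the list, against 46.2% of all genes) had both E147A libraries above all Halo-SMCHD1 libraries, and none was called by limma, with 4 at an unadjusted p under 0.05 and 3 adjusted p from 0.0506 to 0.0586. Eif2s3x, the gamma subunit of the translation factor eIF2, had 0.188, 0.227 and 0.240 in Halo-SMCHD1 and 0.300 and 0.302 in E147A (limma adjusted p = 0.0506). Kdm6a, an H3K27 demethylase, had 0.232, 0.257 and 0.270 against 0.307 and 0.352 (limma adjusted p = 0.0715). Ddx3x, an RNA helicase, had 0.116, 0.162 and 0.162 against 0.212 and 0.244 (limma adjusted p = 0.0586). Shroom4, an actin-binding protein, was low in Halo-SMCHD1 with 0.0198, 0.0349 and 0.0367 and had 0.0474 and 0.101 in E147A (limma adjusted p = 0.0506). The list's median log2 odds difference was 0.58, and -0.48 with library medians removed.

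In the X inactivation centre, Xist was read almost wholly from the induced allele, with fractions of 0.998 to 0.999 in all 5 libraries. Its antisense partner Tsix varied within Halo-SMCHD1 from 0.111 to 0.647, and had 0.199 and 0.107 in E147A (limma adjusted p = 0.585). Counting used strand, which is meant to assign reads of Xist and Tsix separately. Whether some Xist reads were still counted for Tsix was not tested. Chic1 had 0.0203, 0.0436 and 0.0621 in Halo-SMCHD1 and 0.0639 and 0.0647 in E147A, which did not overlap but was not called (limma adjusted p = 0.175).

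Some genes were at or near 1, or uneven between libraries. Ube2a was at 1 in all 5 libraries, and C330007P06Rik at 0.996 or above. Dynlt3, a dynein light chain, had 0.778, 0.794 and 0.706 in Halo-SMCHD1 and 0.810 and 0.744 in E147A (limma adjusted p = 0.790). Before induction Ube2a, C330007P06Rik and Dynlt3 already lay outside 0.25 to 0.75 in Halo-SMCHD1, in E147A or in both. Their day 7 fractions therefore do not measure silencing from an equal start. Pnma5 had 0.667, 0.333 and 0.571 against 0.364 and 0.609. The largest difference between the E147A libraries was at Slc25a5, a mitochondrial ADP/ATP carrier, with 0.182 in replicate 1 and 0.633 in the unmatched library. It had 0.438, 0.25 and 0.550 in Halo-SMCHD1, and Pnma5 and Slc25a5 were not called. Timp1 had 0.0455 in replicate 1 and 0.400 in the unmatched library, and Praf2 had 0.0690 and 0.375. The locus listed as Mir669m-2, which spans 77164403 to 77475936 and was not matched to an annotated gene, had 0.105 and 0.462. That locus also lay outside 0.25 to 0.75 before induction in either or both lines.

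Genes just short of separation were Xist, Akap17b and Gm14634. Akap17b was listed at 0 in Halo-SMCHD1 replicates 1 and 3, had 0.0247 in replicate 2, and had 0.0238 and 0.0577 in E147A. Gm14634 had 0.0315, 0.0757 and 0.0375 against 0.0745 and 0.0957. Gabra3, the gene with E147A below, had 0.0253, 0.0110 and 0.0197 against 0.0109 and 0.00662, and was not called (limma adjusted p = 0.299).

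After library medians were removed, the genes with the largest gaps included Spin4, Awat2, Chst7, Enox2 and Prrg3. Spin4 had a relative log2 odds difference of 1.99 ± 0.32 (SE, limma adjusted p = 0.0109). Awat2, an acyltransferase of wax ester synthesis, was listed at 0 in Halo-SMCHD1 replicate 1, had 0.0137 and 0.0152 in replicates 2 and 3, and had 0.0488 and 0.102 in E147A. Prrg3 was listed at 0 in all 3 Halo-SMCHD1 libraries and had 0.0455 and 0.0370 in E147A. Neither was called on this relative scale (limma adjusted p of 0.557 and 0.615).

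Along the X chromosome, genes without overlap were found in every 20 Mb stretch from 0 to the Xist locus, where the table ends. From the first stretch on they were 26 of 50, 11 of 33, 21 of 44, 32 of 64, 13 of 33 and 12 of 25 genes. Called genes were 9, 3, 7, 15, 2 and 4 in the same stretches. The 60 to 80 Mb stretch had the highest share of called genes, 23.4%, and the 80 to 100 Mb stretch the lowest, 6.06%, against 16.1% of all genes. Shares without overlap ran from 33.3% to 52%, against 46.2% of all genes. No test of these shares was made.

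When genes were ranked by their fraction in the 24 h Halo-SMCHD1 library, the day 7 difference in fraction was larger in the classes with the higher 24 h values. Its median was 0.0206 in the lowest of 3 equal classes, 0.0366 in the middle and 0.0567 in the highest, with 83 genes each. Genes without overlap numbered 29 (34.9%), 44 (53.0%) and 42 (50.6%), against 46.2% of all genes, and called genes 9 (10.8%), 17 (20.5%) and 14 (16.9%), against 16.1%. On the log2 odds scale the medians were 0.83, 0.86 and 0.91. At 24 h itself, 170 of 249 genes (68.3%) and 32 of the 40 called genes (80.0%) were higher in the E147A library, with median differences of 0.0203 and 0.0329 in fraction. Before induction 117 of 249 and 22 of the 40 were higher in E147A. With 1 library per line at these points there is no replicate check.

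Y353C, a second substitution in the GHKL domain made in the same Halo-SMCHD1 line, and an SMCHD1 knockout made in the untagged parental line were compared with the same E147A libraries. Y353C medians were 0.0513 and 0.0571 and those of the knockout 0.0526 and 0.0714, so that E147A replicate 1, at 0.0526, lay among them and the unmatched library, at 0.101, above them. Replicate 1 exceeded the Y353C mean in 103 of 249 genes and the unmatched library in 201. Against the knockout mean these counts were 81 and 186. The tag, the eGFP-CIZ1 transgene and the genotype cannot be told apart in the comparison with the knockout.

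The limma fit called 1 of 249 genes (0.402%) between E147A and Y353C, with 11 at an unadjusted p under 0.05, and 1 of 249 (0.402%) between E147A and the knockout, with 8. Both calls were Spin4. It had 0.0227 and 0.0333 in Y353C, below both E147A libraries (log2 odds difference 1.09 ± 0.20 SE, limma adjusted p = 0.0323), and it was listed at 0 in both knockout libraries (3.04 ± 0.20 SE, limma adjusted p = 7.71e-07). The call against Y353C was lost with either E147A library left out and with Y353C replicate 1 left out, and that against the knockout was kept with either. A count this low does not show that the 3 lines act alike. Both E147A libraries lay above both Y353C libraries in 60 of 249 genes (24.1%) and below both in 16 (6.43%). For the knockout the counts were 39 (15.7%) and 22 (8.84%). With 2 libraries on each side, such separation is common without any difference between lines, and these counts were not tested.

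Side by side, Kif4 had 0.0688 and 0.0941 in Y353C and 0.0829 and 0.134 in the knockout, and Flna had 0.0964 and 0.0820 in Y353C and 0.106 and 0.135 in the knockout. For both genes these values lay above all 3 Halo-SMCHD1 libraries, and for Kif4 both Y353C values lay below both E147A libraries. Zfp182 had 0.0894 and 0.101 in Y353C, just above its highest Halo-SMCHD1 value, and 0.154 and 0.138 in the knockout. Ppp1r3f was uneven in Y353C, with 0.156 and 0.0175, and had 0.141 and 0.224 in the knockout. Eif2s3x had 0.242 and 0.248 in Y353C and 0.252 and 0.233 in the knockout, below both E147A libraries.

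**Figure D4:**
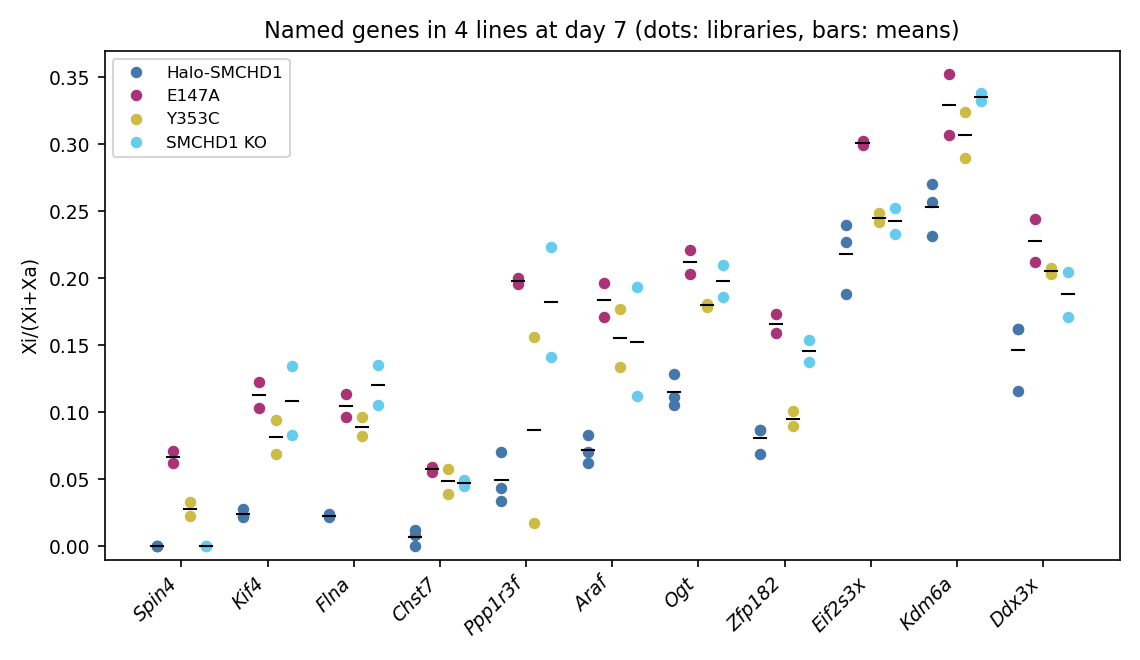
Xi/(Xi+Xa) of 11 genes at day 7 in Halo-SMCHD1 (3 libraries), E147A, Y353C and SMCHD1 KO (2 libraries each), with dots for libraries and bars for means. Spin4 is at 0 in Halo-SMCHD1 and SMCHD1 KO, and at 0.0625 and 0.0714 in E147A, while Kif4 and Flna lie above Halo-SMCHD1 in the 3 other lines.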

How the data were processed

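Chromatin-associated RNA libraries were used as the fractions, Xi/(Xi+Xa) per gene, that the authors deposited. Per their methods, reads left after rRNA removal with Bowtie2 were aligned to N-masked mm10 with STAR, split by SNPs with SNPsplit and counted by strand over transcripts with featureCounts, and genes with few SNP-covering reads were dropped. No depth is attached to the fractions. Columns were matched to labels by name, and 2 columns matching no label were not used. Table starts count from 0 (116 of 239 lie 1 below the RefSeq start), and coordinates are given from 1. limma 3.58.1 (R 4.3.3) was applied to log2((f + 0.01)/(1 - f + 0.01)) of each fraction f, with a mean for each line and day over 18 day 5 and day 7 libraries that share 1 estimate of the spread, Benjamini-Hochberg adjustment and a threshold of 0.05. The fit was tested on 20 simulated sets, each with 60 genes raised by 3 log2 odds, and called 84.6% of the raised genes. That shift is larger than the 0.87 of the median gene, and no library-wide shift was simulated. The simulation therefore does not show how the fit performs on shifts like those here. Promoters are RefSeq windows and overlaps are from GENCODE vM21. Tables were made with Python 3.11.15.

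Genes named are the 12 with the largest gap between the lower E147A and the highest Halo-SMCHD1 library, the 8 with the smallest adjusted p, genes with E147A below, the 5 highest in Halo-SMCHD1 and Xist, the 5 differing most between E147A libraries, 3 just short of separation, up to 4 per list, the 6 largest gaps after removal of library medians, and genes called against Y353C or the knockout. Some genes that this rule takes are not reported here. Other list members were named after their values were seen. The comparison and the lists were chosen with earlier results of these data known.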

Additional observations from a re-analysis of the deposited data

Results flagged for a closer look

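Spin4 passed the test of a difference between the mutant lines in their change from Halo-SMCHD1, a call that other settings ended. E147A exceeded Y353C by 1.09 on the log2 odds scale (limma adjusted p = 0.0323, over 249 genes), with 0.0625 and 0.0714 in the E147A libraries and 0.0227 and 0.0333 in the Y353C libraries, both E147A libraries being the higher. The test is that of the difference itself, since both lines are set against the same Halo-SMCHD1 libraries. Spin4 was not called with either E147A library or Y353C replicate 1 left out, with the 2 groups only, with day 7 libraries only, with the replicate block, among genes at 0.25 to 0.75 before induction, with library medians removed or with robust and trended eBayes. The depth behind these fractions is unknown, and each could rest on very few Xi reads.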

How the results depend on the processing

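For E147A against Halo-SMCHD1, 40 genes were called. The count was 23 with a pseudocount of 0.001, 24 with day 7 libraries only, 1 with the 2 groups only, 1 with library medians removed and 64 with the replicate block, and 5 to 79 with 1 library left out. It moved by less than 1.5 times in the other alternatives, 38 to 50 genes. Correlations across genes of deviations between E147A and Halo-SMCHD1 libraries lay from -0.0501 to 0.0501. Such correlations do not register a shift shared by all genes of a library. They therefore cannot decide whether column numbers mark a pairing. Against Y353C the limma count of 1 became 2 with untransformed fractions (Zfp182 added) and 0 with the 2 groups only, day 7 libraries only, the replicate block, genes at 0.25 to 0.75 before induction, library medians removed or robust and trended eBayes, with 10 to 13 genes at an unadjusted p under 0.05 in these 6 fits, and it was 0 to 1 with 1 library left out. Without Y353C replicate 1 the gene called was Ppp1r3f. Against the knockout it was 0 with the 2 groups only and 0 without genes listed at 0, with 6 and 5 genes at an unadjusted p under 0.05, and 1 to 3 with 1 library left out. Genes without overlap fell from 115 to 17 with library medians removed and were 118 to 197 with 1 library left out. The mean difference ranged from 0.0168 to 0.0618 with 1 library left out. With library medians removed the log2 odds differences of Ogt, Xiap and Otud5 became -0.057, -0.039 and -0.28. Of the other alternatives for named genes, 114 lost a call, 34 gained one and 583 stayed on their side of the threshold. The causes were not tested. Without depth, low fractions and zeros cannot be given an error.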
